A study of Glycine max with 12 samples.

Results

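PR1-7, a pathogenesis-related protein of the PR-1 family, and the osmotin-like proteins OLPa and OLPb were followed in leaves of aphid-infested and uninfested soybean (Glycine max). The probe sets were chosen by gene name: every soybean probe set on the array that the platform annotation assigns to PR1-7, OLPa or OLPb alone. There were 9 such probe sets among the 37593 for soybean transcripts, 2 for PR1-7, 4 for OLPa and 3 for OLPb. The 3 genes are among 6029 with a symbol of their own on the platform. A probe set pools several short probes for a transcript. Probe sets assigned to the same gene were read from the same RNA samples, so they are not independent observations. Whether those with A1 and those with S1 in their names read the same transcript was not tested.

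PR-1 proteins are small secreted proteins that plants accumulate after attack, and their transcripts are widely used as markers of salicylic acid signalling. Osmotin-like proteins belong to the PR-5, or thaumatin-like, family. Many proteins of that family act against fungi, and osmotin itself was first described in tobacco cells adapted to salt. Aphids feed from the phloem through a stylet, and the salicylic acid branch of plant defense is commonly induced by this kind of feeding.

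S plants were of the cultivar SD01-76R, which is susceptible to the soybean aphid. R plants were of LD05-16060, which is related to it and has Rag1, a gene that confers resistance to the aphid. All plants shared a growth chamber, with or without aphids of biotype 1, to which Rag1 gives resistance, in a no-choice test in which each infested plant received 30 aphids and was kept under a net. The 4 groups were uninfested S plants (SC), infested S plants (SA), uninfested R plants (RC) and infested R plants (RA), each with 3 Affymetrix Soybean Genome Arrays. Each array held RNA of the third trifoliate leaves pooled from 2 plants and harvested after 21 days, and the leaves of all groups were washed and rubbed as for removing aphids. Infested plants stood on the left side of the chamber and uninfested plants on the right, so the aphid treatment and the place in the chamber cannot be told apart. Shortly before the harvest S plants carried many more aphids than R plants according to the study, so cultivar and aphid number cannot be told apart when infested plants of both cultivars are compared. With 1 susceptible and 1 resistant cultivar, Rag1 and the rest of the genetic background cannot be told apart either.

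Levels are given as log2 intensities after quantile normalization of the 12 arrays, and differences as log2 differences, in which 1 unit is a doubling. The median of the 60 control probe sets on the array lay between 5.30 and 5.51 on the 12 arrays and serves as the level below which a probe set was hardly above its surroundings. No background was subtracted, so the difference between a high group and a group near that level is smaller than it would be with background removed. Fewer cells with a transcript and less of it per cell cannot be told apart in whole leaves. Of 16 probe sets for leaf marker genes, 13 were above the control level on every array, with medians between 9.25 and 9.97 in the 4 groups. The medians of 42 seed and 11 root nodule probe sets stayed between 5.26 and 5.47. Above the control level on every array were 8 of the 42 seed and 1 of the 11 root nodule probe sets. No marker probe set passed the test in any comparison, and the median difference of the leaf markers between infested and uninfested S plants was -0.25, against -0.04 over all soybean probe sets.

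PR1-7 varied widely within groups. Its probe set GmaAffx.88845.1.S1_at read 11.21, 7.24 and 9.56 on the 3 arrays of uninfested S plants and 12.09, 9.37 and 12.18 on those of infested S plants. In R plants it read 8.10, 6.62 and 7.25 without aphids and 8.33, 6.86 and 8.88 with aphids. The 2 highest arrays of all 12 were thus infested S plants, every array was above the control level, and the lowest and the highest array were 47.4-fold apart. Uninfested S plants alone spanned 3.96 log2 units, and their lowest array lay below 2 of the 3 infested R arrays. The group means were 11.21 ± 1.60 (SD, n = 3) in infested S, 9.34 ± 1.99 in uninfested S, 8.02 ± 1.04 in infested R and 7.32 ± 0.75 in uninfested R plants. Neighbouring groups in this order overlapped in their arrays.

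The second PR1-7 probe set, GmaAffx.88845.1.A1_at, had a smaller range in each group. It read 7.48, 5.60 and 6.14 in uninfested S plants, 6.93, 6.77 and 7.29 in infested S plants, 5.91, 5.40 and 5.92 in uninfested R plants and 6.31, 5.75 and 6.82 in infested R plants. Its highest array was the first array of uninfested S plants, whereas the other probe set of the gene was highest in infested S plants. The correlation of the 2 PR1-7 probe sets over the 12 arrays was 0.90, a description over arrays that share groups and normalization.

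OLPa was near the control level in R plants and higher in most S arrays. Its probe set with the highest mean, Gma.2821.2.S1_a_at, read 8.30, 5.60 and 7.09 in uninfested S plants and 10.17, 7.07 and 8.98 in infested S plants. In R plants the same probe set read 5.76, 5.37 and 5.37 without aphids and 5.78, 5.39 and 5.86 with aphids. All 6 R arrays were therefore close to the control level, and all 3 infested S arrays lay above every R array. The lowest uninfested S array, at 5.60, fell inside the range of the R plants.

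The other OLPa probe sets followed the same course. Gma.2821.1.S1_at read 7.23, 5.15 and 6.10 in uninfested S, 8.87, 6.22 and 7.73 in infested S, 5.22, 5.31 and 5.31 in uninfested R and 5.24, 5.46 and 5.73 in infested R plants. Gma.2821.2.S1_at read 7.65, 5.63 and 6.64 in uninfested S, 9.39, 6.48 and 8.52 in infested S, 5.44, 5.40 and 5.51 in uninfested R and 5.54, 5.42 and 5.59 in infested R plants. GmaAffx.92699.1.S1_s_at, whose suffix marks probes shared with similar transcripts, read 7.50, 5.57 and 6.53 in uninfested S, 9.63, 6.34 and 8.41 in infested S, 5.30, 5.09 and 5.44 in uninfested R and 5.64, 5.28 and 5.47 in infested R plants. On each of the 3 the infested S arrays were all above the R arrays, and the first infested S array was the highest of the 12. Correlations among the 4 OLPa probe sets ran from 0.98 to 1.00 over the 12 arrays.

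OLPb was above the control level on every array on 1 of its 3 probe sets. This one, GmaAffx.92230.1.A1_s_at, also with probes shared among similar transcripts, read 9.85, 7.77 and 7.78 in uninfested S plants and 10.73, 9.93 and 10.21 in infested S plants. In R plants it read 7.51, 7.41 and 7.27 without aphids and 7.51, 8.34 and 7.51 with aphids. Every infested S array was above every other array, and every uninfested R array was below every uninfested S array. Unlike OLPa, this probe set stayed well above the control level in R plants, with means of 7.40 ± 0.12 (SD, n = 3) in uninfested and 7.79 ± 0.48 in infested R plants, against 8.47 ± 1.20 in uninfested and 10.29 ± 0.41 in infested S plants.

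The OLPb probe set GmaAffx.92230.1.S1_at read 5.95, 5.27 and 5.41 in uninfested S, 6.37, 5.99 and 6.46 in infested S, 5.30, 5.42 and 5.48 in uninfested R and 5.64, 5.35 and 5.39 in infested R plants. Only its infested S arrays were all above the control level and above all other arrays. The third, GmaAffx.92230.1.A1_at, was above the control level on 1 of 12 arrays and lay between 4.42 and 5.52. No order of groups was read from it.

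**Figure D1:**
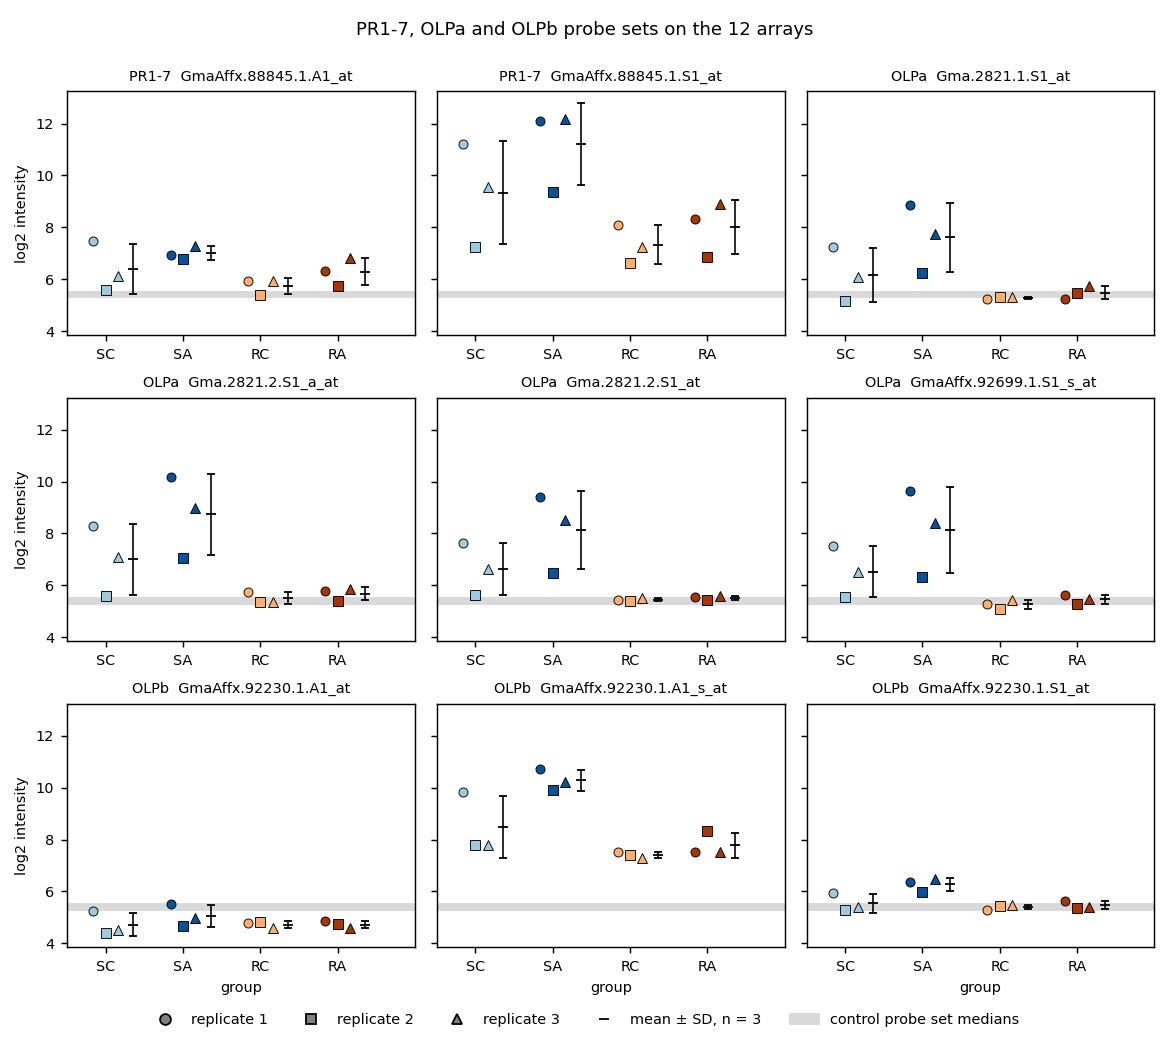
Quantile-normalized log2 intensity (vertical axis) of each PR1-7, OLPa and OLPb probe set on every array, by group (SC and SA, uninfested and infested S plants; RC and RA, uninfested and infested R plants). Symbols mark the replicate number, dashes with bars the mean ± SD of 3 arrays, and the grey band the control medians between 5.30 and 5.51; OLPa is near the band on all R arrays and PR1-7 (GmaAffx.88845.1.S1_at) spans 3.96 log2 units in uninfested S plants.

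The susceptible response, infested against uninfested S plants, asked whether these genes changed under long-term aphid feeding on a susceptible host. All 9 probe sets were higher on average in infested S plants, by 0.33 to 1.87 log2 units with a median of 1.49. So were 16210 of the 37593 soybean probe sets, and the 9 belong to 3 genes that varied together. None of the 9 passed a Benjamini-Hochberg adjusted p of 0.05 over all soybean probe sets in limma. Of all soybean probe sets, 2.51% passed as higher in this comparison. At an unadjusted p under 0.05, 6 of the 9 were higher, all 4 of OLPa and 2 of OLPb, where 7.73% of all soybean probe sets were. The arrays of infested and uninfested S plants did not overlap for 2 probe sets, both of OLPb, where 8.33% of all soybean probe sets showed such a separation upward. None met the study's stricter cutoffs, which are p up to 1e-04, q up to 0.04 and at least a 2-fold change, and which 1.03% of soybean probe sets met in either direction. With the replicate number as a block in the fit, 0 of the 9 and 1.92% of all soybean probe sets met them.

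OLPb came nearest to the threshold. GmaAffx.92230.1.A1_s_at was 1.82 ± 0.46 (SE) log2 units higher in infested S plants, or 3.53-fold, with a 95% interval from 0.81 to 2.83 and an adjusted p of 0.0553 in limma. GmaAffx.92230.1.S1_at was 0.73 ± 0.19 higher, with an adjusted p of 0.0607 in limma. The SE, intervals and p pool the spread of all 4 groups. On GmaAffx.92230.1.A1_s_at the SD was 0.12 in uninfested and 0.48 in infested R plants, against 1.20 and 0.41 in S plants. With only the S arrays in the fit, the adjusted p in limma was 0.156 on that probe set and 0.175 on GmaAffx.92230.1.S1_at. The adjusted p was higher still for OLPa and PR1-7. The part of the spread and of the fewer arrays in this was not tested. In the fit of all 12 arrays the OLPa differences were 1.45 to 1.74, with SE of 0.58 to 0.71 and adjusted p in limma from 0.228 to 0.243. PR1-7 had the largest mean difference on GmaAffx.88845.1.S1_at, 1.87 ± 0.96 or 3.66-fold, but its 95% interval ran from -0.21 to 3.96 and its adjusted p in limma was 0.362. Its other probe set differed by 0.59 ± 0.41 (adjusted p = 0.526 in limma). Single arrays moved these values: the 1.87 of PR1-7 was 0.83 without replicate 2 of uninfested S plants and 2.80 without replicate 1, and ran between these with any other array left out. For OLPa on Gma.2821.2.S1_a_at the difference was 1.02 without replicate 1 of infested S plants and 2.58 without replicate 2.

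In S plants the arrays of the same replicate number moved together for these probe sets, and this bears on the counts. Over all soybean probe sets such pairing was less clear within S plants. Replicate 2 was the lowest array of both S groups for all 9 probe sets, and the lowest of all 4 groups for 5 of them, both of PR1-7 and 3 of OLPa. Of all soybean probe sets, 5.24% had replicate 2 lowest in all 4 groups. Subtracting uninfested from infested S plants within each number gave 0.88, 2.12 and 2.62 for PR1-7 (GmaAffx.88845.1.S1_at), 1.87, 1.47 and 1.89 for OLPa (Gma.2821.2.S1_a_at) and 0.88, 2.15 and 2.43 for OLPb (GmaAffx.92230.1.A1_s_at). Except for PR1-7 on GmaAffx.88845.1.A1_at, with -0.55 in the first pair, every probe set was higher in infested S plants in all 3 pairs.

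With the replicate number as a block in the limma fit, 4 of the 9 probe sets were higher in infested S plants, where 4.34% of all soybean probe sets passed as higher. These were PR1-7 on GmaAffx.88845.1.S1_at (adjusted p = 0.0325 in limma), OLPa on Gma.2821.2.S1_a_at (0.0467) and OLPb on GmaAffx.92230.1.A1_s_at (0.0224) and GmaAffx.92230.1.S1_at (0.0279). Without the block, single arrays also decided the count: leaving out replicate 2 of infested S plants gave 5 probe sets, all 4 of OLPa and OLPb on GmaAffx.92230.1.S1_at. Leaving out replicate 1 of uninfested S plants gave 2, both of OLPb, and leaving out replicate 2 of infested R plants gave 1.

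**Figure D2:**
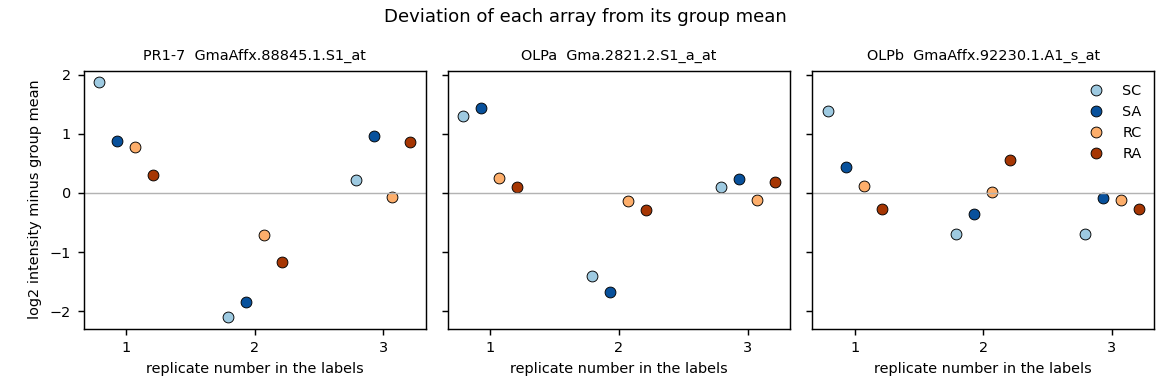
Log2 intensity minus the group mean (vertical axis) for the probe set with the highest mean of PR1-7, OLPa and OLPb, by the replicate number in the labels, with points coloured by group (SC and SA, uninfested and infested S plants; RC and RA, uninfested and infested R plants). Replicate 2 lies below the group mean in all 4 groups for PR1-7 and OLPa, and only in the S groups for OLPb, where infested R plants have it highest.

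The spread within groups was large for PR1-7 and OLPa and differed between the probe sets of OLPb. The residual SD of the fit was 1.43 log2 units for PR1-7 (GmaAffx.88845.1.S1_at), larger than for 99.9% of soybean probe sets, and 0.59 on GmaAffx.88845.1.A1_at, larger than for 95.2%. It was 0.85 to 1.05 for OLPa, against a median of 0.23 over all soybean probe sets. For OLPb it was 0.68 on GmaAffx.92230.1.A1_s_at, 0.33 on GmaAffx.92230.1.A1_at and 0.24 on GmaAffx.92230.1.S1_at, the last close to that median. For PR1-7 on GmaAffx.88845.1.S1_at and for the 4 OLPa probe sets the SD was larger in both S groups than in either R group. On GmaAffx.88845.1.A1_at of PR1-7 this held only for uninfested S plants. OLPa on Gma.2821.2.S1_a_at spanned 2.70 log2 units in uninfested and 3.10 in infested S plants, but 0.39 and 0.47 in uninfested and infested R plants, where the probe set was near the control level.

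The resistance response, infested against uninfested R plants, asked whether the genes changed on the resistant host. None of the 9 probe sets passed the test in either direction, and 0% of all soybean probe sets passed (776 had an unadjusted p under 0.05, and the replicate block also gave 0). None of the 9 had an unadjusted p under 0.05 and none had arrays that did not overlap, where 6.25% of all soybean probe sets did, in either direction. PR1-7 differed by 0.70 on GmaAffx.88845.1.S1_at, with a 95% interval from -1.39 to 2.79 that leaves room for large differences either way. OLPa differed by 0.07 to 0.20, and OLPb by 0.39 on GmaAffx.92230.1.A1_s_at, with a 95% interval from -0.62 to 1.40. The infested R array with the highest OLPb value, 8.34, was replicate 2.

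The difference between the 2 responses was tested directly. The response of R plants was below that of S plants for all 9 probe sets, and for 17244 of the 37593 soybean probe sets. The differences of the 9 ran from -1.56 to -0.04 log2 units, but none passed the adjusted test, and neither did any with the block. Of all soybean probe sets, 0.00798% passed. The smallest p belonged to OLPb: the difference was -0.67 on GmaAffx.92230.1.S1_at (adjusted p = 0.64 in limma) and -1.43 on GmaAffx.92230.1.A1_s_at (adjusted p = 0.721). For OLPa it ran from -1.56 to -1.25, and for PR1-7 on GmaAffx.88845.1.S1_at it was -1.17 with a 95% interval from -4.12 to 1.78. The responses of S and R plants were thus not shown to differ for any of these genes.

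**Figure D3:**
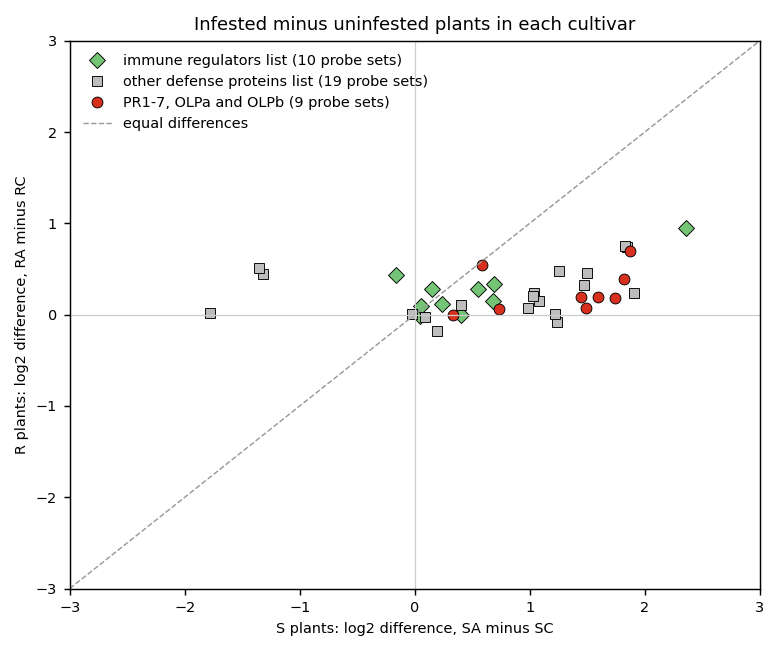
Log2 difference between infested and uninfested plants in S plants (horizontal axis) and in R plants (vertical axis), 1 point for each probe set of PR1-7, OLPa and OLPb (9), of 13 other defense genes (19) and of 7 immune regulators (10). All 9 points of PR1-7, OLPa and OLPb lie below the dashed line of equal differences, the nearest at 0.59 in S and 0.55 in R plants.

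Genetic differences were read from uninfested plants. R plants were lower than S plants for 8 of the 9 probe sets, with a median of -1.07, and for 18041 of the 37593 soybean probe sets. None of the 9 passed the test, as for all but 0.0745% of soybean probe sets in either direction. PR1-7 on GmaAffx.88845.1.S1_at differed by -2.01 ± 0.96 (SE) log2 units between uninfested R and S plants, with a 95% interval from -4.10 to 0.07. The replicate block left its adjusted p at 0.223 in limma. The OLPa probe sets differed by -1.50 to -0.88, and OLPb by -1.07 on GmaAffx.92230.1.A1_s_at, the 1 probe set of 9 with an unadjusted p under 0.05, where 1.52% of all soybean probe sets were lower at that level. Without replicate 1 of uninfested S plants these differences were -1.08 for PR1-7 on GmaAffx.88845.1.S1_at and -0.38 for OLPb on GmaAffx.92230.1.A1_s_at, and without replicate 2 they were -3.06 and -1.42. The arrays did not overlap for 3 probe sets, OLPa on Gma.2821.2.S1_at and GmaAffx.92699.1.S1_s_at and OLPb on GmaAffx.92230.1.A1_s_at, while 3.56% of all soybean probe sets were separated in this direction. Within the pairs of the same number, the values for PR1-7 on GmaAffx.88845.1.S1_at were -3.10, -0.63 and -2.31, R minus S plants.

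Infested R and S plants differed most. The study did not rely on this comparison because of the unequal aphid numbers. All 9 probe sets were lower in infested R plants, with a median of -2.50, as were 15920 of the 37593 soybean probe sets. Of the 9, 4 passed the adjusted test, where 2.29% of all soybean probe sets passed as lower. OLPa was 8.33-fold lower on Gma.2821.2.S1_a_at, a log2 difference of -3.06 ± 0.71 (SE; adjusted p = 0.0393 in limma), and 6.10-fold lower on Gma.2821.2.S1_at (-2.61 ± 0.61, 0.0414). OLPb was 5.66-fold lower on GmaAffx.92230.1.A1_s_at, a log2 difference of -2.50 ± 0.46 (SE; adjusted p = 0.0151 in limma), and 1.75-fold lower on GmaAffx.92230.1.S1_at (-0.81 ± 0.19, 0.0421). PR1-7 had the largest difference of the 9, -3.19 ± 0.96 on GmaAffx.88845.1.S1_at or 9.10-fold, and did not pass (adjusted p = 0.106 in limma). None met the study's cutoffs, which 0.827% of soybean probe sets met, but 3 did with the replicate block, where 1.81% of all soybean probe sets met them. These 3 were PR1-7 on GmaAffx.88845.1.S1_at (unadjusted p = 2.12e-05 in limma), OLPa on Gma.2821.2.S1_a_at (3.31e-05) and OLPb on GmaAffx.92230.1.A1_s_at (7.32e-05).

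The arrays of infested R and infested S plants did not overlap for 7 probe sets, all 4 of OLPa, 2 of OLPb and PR1-7 on GmaAffx.88845.1.S1_at, where 8.36% of all soybean probe sets were separated downward. The remaining PR1-7 probe set, GmaAffx.88845.1.A1_at, overlapped, because infested R replicate 3, at 6.82, was above infested S replicate 2, at 6.77. With the replicate block the same 7 probe sets that were separated passed, against 4.46% of all soybean probe sets that passed as lower. PR1-7 on GmaAffx.88845.1.S1_at then had an adjusted p of 0.00211 in limma, and OLPa had values from 0.00271 to 0.019. Within the numbered pairs, R minus S plants was -3.76, -2.50 and -3.30 for PR1-7 on that probe set, -4.39, -1.67 and -3.11 for OLPa on Gma.2821.2.S1_a_at, and -3.22, -1.58 and -2.70 for OLPb on GmaAffx.92230.1.A1_s_at. The pair numbered 2 gave the smallest difference for each of the 3.

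The count of 4 moved from 0 to 7 when single arrays were left out. It was 0 without replicate 1 of infested S plants and without replicate 1 or 3 of infested R plants, and 7 without replicate 2 of infested S plants. It was 1 without replicate 3 of infested S plants, replicate 2 of infested R plants or any of the 3 uninfested R arrays, and that 1 was OLPb on GmaAffx.92230.1.A1_s_at in each case. The difference of this probe set stayed between -2.78 and -2.28 and its adjusted p in limma between 0.00141 and 0.0818, passing in 9 of the 12 fits. OLPa on Gma.2821.2.S1_a_at moved further, to -2.33 without replicate 1 and -3.90 without replicate 2 of infested S plants, and passed in 4 of the 12 fits. PR1-7 on GmaAffx.88845.1.S1_at was -2.61 without replicate 2 of infested R plants and -4.10 without replicate 2 of infested S plants, where it passed (adjusted p = 0.0315 in limma), the 1 fit of 12 in which it did. Leaf marker probe sets differed by a median of 0.26 in the same comparison, and their part in the result was not tested.

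**Figure D4:**
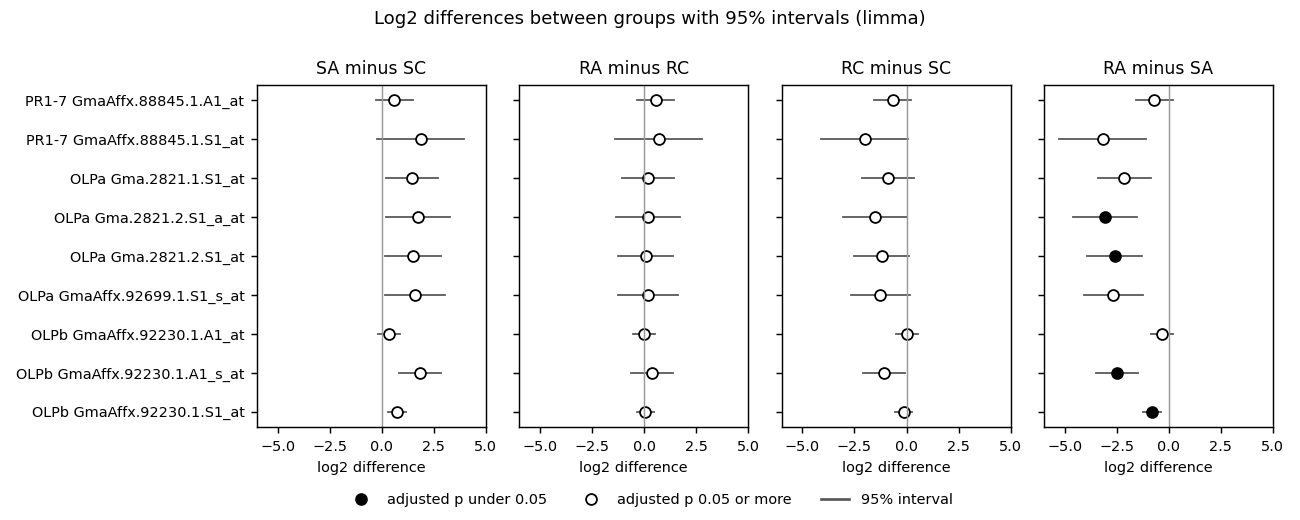
Log2 difference (horizontal axis) of each PR1-7, OLPa and OLPb probe set in the 4 comparisons, with the limma estimate as a point and its 95% interval as a line. Filled points have an adjusted p under 0.05 and occur only between infested R and infested S plants, on 4 probe sets; PR1-7 (GmaAffx.88845.1.S1_at) has the widest intervals.

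The 3 genes varied together over the arrays, with correlations that differed between probe sets. PR1-7 on GmaAffx.88845.1.S1_at correlated with the OLPa probe sets at 0.92 to 0.96 and with OLPb on GmaAffx.92230.1.A1_s_at at 0.84, and OLPb on that probe set correlated with OLPa at 0.88 to 0.90. The OLPb probe sets correlated with each other at 0.72 to 0.91. The dimmest, GmaAffx.92230.1.A1_at, correlated with PR1-7 at 0.58 and 0.69 and with OLPa at 0.77 to 0.81. PR1-7 on GmaAffx.88845.1.A1_at correlated with OLPa at 0.74 to 0.78. These are Pearson correlations over 12 arrays that share groups, replicate numbers and normalization. Among 5591 probe sets of other genes with 1 symbol and at least a median level, those most like PR1-7 on GmaAffx.88845.1.S1_at were LOC100791036 (0.99) and the chitinase gene CHIA1 (0.98). Those most like OLPa on Gma.2821.2.S1_a_at were LOC100500690 (0.99), LOC100779492 (0.98) and GSTU42 (0.98), a glutathione transferase of the tau class. OLPb on GmaAffx.92230.1.A1_s_at was most like LOC100804190 (0.95), and WRKY58, a WRKY transcription factor, was the fifth at 0.95.

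The named genes most like PR1-7 and OLPa were read as follows. These and WRKY58 were chosen for their likeness over the same arrays. A like pattern of groups and replicates therefore follows largely from the choice and is no separate result. CHIA1 read 10.29, 6.48 and 8.89 in uninfested S, 11.41, 8.72 and 11.02 in infested S, 6.66, 6.40 and 6.94 in uninfested R and 7.46, 6.90 and 7.90 in infested R plants. Its replicate 2 was the lowest array of each group, as for PR1-7. GSTU42 read 10.32, 7.02 and 8.27 in uninfested S, 12.11, 9.23 and 11.86 in infested S, 6.08, 6.27 and 6.54 in uninfested R plants, with a mean of 6.88 in infested R plants. In R plants its replicate 2 was not the lowest array. It differed between infested R and S plants by -4.18 ± 0.78 (SE; adjusted p = 0.0151 in limma), and did not pass in the susceptible response (2.53, adjusted p = 0.11). WRKY58, in contrast, rose by 1.94 in infested S plants (adjusted p = 0.00342 in limma).

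A list made by gene symbol, from probe sets with 1 platform symbol, held 19 probe sets for 13 other defense genes, set beside these 3. Defense genes without such a symbol are not in it. In infested S plants 5 of the 19 passed as higher and 0 as lower. Their median difference was 1.04 for the 19, -0.04 over all soybean probe sets and 1.49 for PR1-7, OLPa and OLPb. The 19 ran from -1.78 to 1.91, with 15 positive and 4 negative, where 16210 of the 37593 soybean probe sets were positive. The Kunitz trypsin inhibitor KTI-2 differed by -1.78 and KTI-3 by -1.32 and -1.35. These did not pass and were named after their values were seen. Of all soybean probe sets 2.51% passed as higher. With the replicate block 7 of the 19 were higher, the further ones being PR-10 on GmaAffx.91442.1.S1_at (adjusted p = 0.00642 in limma) and H4 on GmaAffx.89772.14.A1_s_at (0.0291), both named after their values were seen. The 5 without the block were NRP-A on Gma.18054.1.S1_at (1.84, adjusted p = 0.00386 in limma) and GmaAffx.67053.1.S1_s_at (1.26, 0.0246), NRP-B on GmaAffx.80528.1.S1_at (1.50, 0.0192), and PGIP on GmaAffx.90524.1.S1_s_at (1.08, 0.0201) and Gma.8542.1.S1_at (1.47, 0.0359). NRP-A and NRP-B are asparagine-rich proteins linked to stress-induced cell death in soybean, and PGIP is an inhibitor of fungal polygalacturonases. These 5 differences were no larger than that of OLPb on GmaAffx.92230.1.A1_s_at (1.82) except for the first NRP-A probe set, but their SE of 0.22 to 0.34 was below its 0.46. Except in infested S plants, the PGIP probe sets were above the control level on 1 of 3 arrays in each group. The PGIP differences are thus limited by signal near that level. In R plants 0 of the 19 passed between infested and uninfested plants, with a median of 0.20.

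Between infested R and S plants, 4 of the 19 defense probe sets were lower in R plants and 0 higher, with a median of -1.16, and 12 were lower with the replicate block. The shares of all soybean probe sets that passed as lower were 2.29% and 4.46%. The largest of the 4 was PR-10 on GmaAffx.91442.1.S1_at, also known as SAM22, which was named after its values were seen: its difference was -2.83 ± 0.62 (SE; adjusted p = 0.0318 in limma) and read 10.01, 8.18 and 9.83 in infested S against 6.86, 5.95 and 6.70 in infested R plants. PR1-1, the other PR-1 gene of the list and likewise named afterwards, read 6.91, 5.32 and 5.84 in uninfested S, 7.74, 5.71 and 7.69 in infested S, 5.62, 5.09 and 5.51 in uninfested R and 5.57, 5.49 and 5.77 in infested R plants on GmaAffx.93635.1.S1_s_at. On this probe set PR1-1 had replicate 2 lowest in each group as PR1-7 did, and was not past the threshold in the susceptible response (1.02, adjusted p = 0.33 in limma). Its other probe set, GmaAffx.93635.1.A1_at, was above the control level on 4 of 12 arrays and had replicate 2 lowest only in infested R plants. There, uninfested R plants were 0.30 above uninfested S plants, against -0.61 on GmaAffx.93635.1.S1_s_at. Of the 19 differences 15 were negative and 4 positive, where 15920 of the 37593 soybean probe sets were negative. KTI-2 and KTI-3, also chosen for their values, had the opposite sign. KTI-2 read 7.23, 9.96 and 8.92 in infested S and 11.68, 11.27 and 10.42 in infested R plants, a difference of 2.42 (adjusted p = 0.10 in limma). KTI-3 differed by 2.26 on Gma.6231.1.S1_at (0.0799) and by 2.27 on GmaAffx.88984.1.A1_s_at (0.0946).

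A list made likewise by gene symbol held 10 probe sets for 7 immune regulators. These act upstream of PR gene expression in the model plant Arabidopsis, and the list was not split by whether a gene raises or lowers it. In infested S plants 2 of the 10 were higher and 0 lower, where 2.51% of all soybean probe sets passed as higher. Their median was 0.32 against -0.04 over all soybean probe sets. Of the 10 differences 9 were positive, where 16210 of the 37593 soybean probe sets were. NDR1b, related to a membrane protein needed by several resistance genes, rose by 2.36 ± 0.35 (SE; adjusted p = 0.00355 in limma) and read 7.50, 7.75 and 6.53 in uninfested S against 10.19, 9.62 and 9.06 in infested S plants, with no overlap. MPK4B, a mitogen-activated protein kinase, rose by 0.69 (0.0443). NDR1A on Gma.4639.2.S1_at and EDS1-2, related to a regulator of salicylic acid signalling, had differences of 0.68 (adjusted p = 0.108 in limma) and 0.55 (0.263). PAD4 and RAR1-1, named after their values were seen, hardly differed between infested and uninfested S plants. PAD4 differed by 0.15 on Gma.17030.1.S1_at and by -0.16 on GmaAffx.37019.1.S1_at, and RAR1-1 by 0.05 on each of its probe sets. NDR1b was the 1 probe set of the 10 that was lower in infested R than in infested S plants (-1.84, adjusted p = 0.0168 in limma). With the replicate block 4 of the 10 were lower, the others being MPK4B (adjusted p = 0.0314 in limma), NDR1A on Gma.4639.2.S1_at (0.0282) and EDS1-2 (0.0296). The share of all soybean probe sets that passed as lower was 2.29%, and 4.46% with the block. Between infested and uninfested R plants 0 of the 10 passed.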

How the data were processed

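The authors hybridised 12 leaf RNA samples to the Affymetrix array, and the submitters' processing notes name RMA, GCRMA and limma without versions. The deposited values are log2 intensities: 2 to the power of the value was whole for 99.6% of entries (tolerance 1e-06) and array medians ran from 6.86 to 7.71, so no background correction or scaling between arrays was visible. They were quantile normalized here over 37593 soybean probe sets, 60 controls left out. limma 3.58.1 in R 4.3.3 fitted 4 group means to all 12 arrays with empirical Bayes moderation, and p-values were adjusted by Benjamini-Hochberg over all soybean probe sets. The procedure was checked on simulated data with array values drawn independently, which does not cover variation shared by arrays of the same number. Genes come from the platform annotation, in which 8677 probe sets have 1 symbol, 370 several and 28546 soybean probe sets are not listed; the 9 described probe sets carry the same symbols through their gene IDs in RefSeq. The members and the gene lists were chosen with earlier results of these data known. Every member probe set is given; of the defense and immune lists, counts and at most the 4 smallest p in infested S plants, except where stated, with the 1 further probe set that passed. Seed, leaf and nodule markers checked the tissue.

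The labels number the replicates 1 to 3 in each group. Deviations from group means of arrays with the same number correlated at 0.29 to 0.48 between uninfested and 0.17 to 0.42 between infested cultivars. There, arrays of different numbers correlated at no more than 0.03 and 0.05, so the numbers paired arrays across cultivars, as read from the data. In S plants they correlated at 0.13 to 0.36 with the same number and at up to 0.20 otherwise. Pairing was thus less clear within S plants. In R plants the values were -0.12 to 0.49 and up to 0.39, without clear pairing. The methods name no block for the arrays, and the block is given beside each count of the described probe sets and gene lists past an adjusted p of 0.05 that it changes. That each array pools separate plants follows from the plant numbers in the methods, and the number of arrays limits the precision. Alternatives were the values as deposited, median centering, normexp background correction with offsets of 0 and 50, only probe sets at or above the median level, the control probe sets kept in, the replicate block, moderation with a trend and robust, only the arrays compared, and each array left out in turn. Sequences and genome positions are not given here.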

Additional observations from a re-analysis of the deposited data

How the results depend on the processing

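The count of PR1-7, OLPa and OLPb probe sets that differed in the susceptible response was 0; it was 1 with median centering, 1 with trend and robust moderation, 4 with the replicate block, and 0 to 5 with single arrays left out. The count of 4 between infested R and S plants became 2 on the values as deposited, 1 with normexp at an offset of 50, 1 with the filter at the median level (which left 2 of the 9 probe sets), 7 with the replicate block, 2 with trend and robust moderation, 1 with only the arrays compared, and 0 to 7 with single arrays left out. The counts of 0 in R plants, between uninfested cultivars and for the difference of responses held under every alternative run, the block included. The cause of these shifts was not tested, beyond the fewer probe sets and arrays that some alternatives use. No single probe set changed sign in the susceptible response or between infested cultivars. Signs changed only for values near 0. OLPb on GmaAffx.92230.1.A1_at, at -0.0042 in R plants, was 0.0195 on the deposited values, 0.1163 with median centering, and -0.0809 to 0.0701 with arrays left out. Between uninfested cultivars it was -0.0506 on the values as deposited, -0.122 with median centering, -0.0339 with normexp at 50, and -0.1459 to 0.2644 with arrays left out. OLPb on GmaAffx.92230.1.S1_at ran from -0.0278 to 0.1169 in R plants and from -0.2808 to 0.06 between uninfested cultivars with arrays left out. The difference of responses of PR1-7 on GmaAffx.88845.1.A1_at was 0.0049 on the values as deposited and -0.5828 to 0.3637 with arrays left out. On the values as deposited the median of all probe sets was -0.17 in the susceptible response and 0.14 between infested cultivars. Dim probe sets, OLPa in R plants and 2 of OLPb, are limited by signal near the control level.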
